A study of Mus musculus with 47 samples.

Results

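Polycomb repressive complex 2 (PRC2) was followed through its 10 component genes, which were taken by symbol from a table of 38215 genes: Ezh2, Ezh1, Eed, Suz12, Rbbp4, Rbbp7, Jarid2, Aebp2, Mtf2 and Phf19. All 10 were found, and all 10 passed the filter on low counts, as did 20560 genes in all. RNA came from mouse cranial neural crest, the cells that build most of the face, which were dissected, sorted by fluorescence and sequenced in 47 libraries forming 16 groups. Wild-type cells were taken as progenitors at embryonic day 8.5 (E8.5) and, at E10.5 and E11.5, from 4 places named FNP, Mx, Md and PA2: the frontonasal process, the maxillary process, the mandibular process and the second pharyngeal arch. At E10.5 the same 4 subpopulations were also taken from embryos labelled Ezh2cKO (conditional knockout of Ezh2), and Md from embryos labelled HoxA2OE (overexpression of Hoxa2). At E11.5, PA2 was also taken from embryos labelled Hoxa2TempMut (a temporal knockout of Hoxa2) and from embryos labelled Control. Each group had 3 libraries, except wild-type Mx at E10.5 with 2. The labels give no strain, do not name the driver of the conditional or overexpression alleles or the exons removed, and do not say which alleles Control carries.

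PRC2 silences genes by adding methyl groups to lysine 27 of histone H3. Its core is a catalytic subunit, either Ezh2 or its weaker paralog Ezh1, held by Suz12 and by Eed, the subunit that reads the finished mark, together with a histone-binding protein, Rbbp4 or Rbbp7. Accessory subunits steer this core: Mtf2 and Phf19 are Polycomb-like proteins that bind the complex in one form, PRC2.1, while Jarid2 and Aebp2 belong to the other, PRC2.2. In neural crest, PRC2 is known for holding genes of position and of skeletal fate silent until they are called on. Ezh2 is also known as a gene of dividing cells, driven by E2F factors.

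The promoters of the 10 genes were searched for E2F-type letters. The search used 4 spellings on both strands, TTTCCCGC, TTTCGCGC, TTTGCCGC and TTTGGCGC, in windows from 250 bases before to 50 bases after each annotated start (RefSeq, GRCm38.p6). All 10 genes matched, with 14 promoters. Ezh2, Suz12 and Phf19 each had 1 match, at positions +3, -219 and -208 from the start, and the other 7 genes had none. Of 32851 promoters of the same length, 744 (2.265%) held a match, and of the 8701 with at least 20 CpG pairs, as the 3 matching members have, 448 (5.149%) did. Members without a match reached that number of CpG pairs too, such as Rbbp4 with 39 and Rbbp7 with 38. These shares are of promoters and not of genes. The 3 promoters with a match are shown with that of Ezh1, the paralog without one, each 5′ to 3′ on the strand of its gene, and the capitals mark the match on either strand. They lie at chr6:47594981-47595280 (minus strand) for Ezh2, chr11:79992856-79993155 (plus strand) for Suz12, chr2:34913927-34914226 (minus strand) for Phf19 and chr11:101226414-101226713 (minus strand) for Ezh1.
Ezh2: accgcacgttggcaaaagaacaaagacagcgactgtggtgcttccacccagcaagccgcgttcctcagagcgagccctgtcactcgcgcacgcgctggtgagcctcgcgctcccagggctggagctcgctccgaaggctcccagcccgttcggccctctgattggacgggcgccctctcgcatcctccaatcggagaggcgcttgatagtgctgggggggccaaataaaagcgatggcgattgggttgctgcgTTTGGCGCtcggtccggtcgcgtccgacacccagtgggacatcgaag
Suz12: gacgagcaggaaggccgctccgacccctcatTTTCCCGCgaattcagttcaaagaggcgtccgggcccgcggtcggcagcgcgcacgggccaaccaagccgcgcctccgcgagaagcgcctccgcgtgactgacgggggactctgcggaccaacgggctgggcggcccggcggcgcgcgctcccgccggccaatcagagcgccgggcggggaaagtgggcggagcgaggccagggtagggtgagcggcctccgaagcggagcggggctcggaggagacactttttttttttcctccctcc
Phf19: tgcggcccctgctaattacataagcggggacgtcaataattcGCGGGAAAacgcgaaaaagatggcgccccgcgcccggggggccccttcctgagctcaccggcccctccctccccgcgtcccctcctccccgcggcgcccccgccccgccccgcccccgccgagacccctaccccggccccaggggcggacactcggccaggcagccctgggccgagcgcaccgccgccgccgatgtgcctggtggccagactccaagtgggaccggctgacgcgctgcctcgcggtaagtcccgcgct
Ezh1: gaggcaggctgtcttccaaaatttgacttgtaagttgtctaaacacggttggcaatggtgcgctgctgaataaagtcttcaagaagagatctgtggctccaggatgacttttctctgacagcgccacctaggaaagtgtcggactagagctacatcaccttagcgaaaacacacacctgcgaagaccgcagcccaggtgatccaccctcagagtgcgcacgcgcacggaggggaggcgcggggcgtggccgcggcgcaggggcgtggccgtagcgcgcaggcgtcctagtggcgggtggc
These windows were rich in CpG pairs, with 31 in Ezh2, 41 in Suz12, 38 in Phf19 and 23 in Ezh1, where the median over all promoters was 7. A match is a match of letters, and no binding was measured here.

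The libraries held 18.8 to 49.8 M counts in total (M for mega), with a median of 30.6 M. Levels are given as CPM, the usual depth-scaled count, after TMM scaling, a correction for differences in library composition. Nothing says whether replicates came from separate litters. The p-values set differences between groups against the spread of libraries within groups, and that spread may be technical only. Mean and SD are over the libraries of a group. In 4 groups 1 library stood apart from its replicates. Replicate 1 of HoxA2OE differed from its replicates with a chi-square of 316 and 331 for each degree of freedom, while those differed from each other with 12.2. The same values were 118 and 128 against 6.67 for replicate 1 of E8.5, 42.3 and 44.4 against 6.19 for replicate 1 of wild-type FNP at E10.5, and 71.3 and 65.3 against 12.1 for replicate 3 of FNP at E11.5. Replicate 1 of HoxA2OE, E8.5 and FNP also held more mitochondrial counts than its group, 45.9%, 18.7% and 33.6% against highest values of 28.5%, 11.8% and 28.9% in the others. Values without these libraries are given where they change a call or move a value by much. The marker genes of neural crest and cranial mesenchyme summed to 1192 to 2890 CPM at E10.5 and E11.5, all genotypes included, but to 312 to 376 CPM at E8.5.

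Compared per kb of annotated exon, the 10 RNAs spanned a wide range in wild-type cells. Averaged over the 9 wild-type groups, Rbbp7 stood at 63.4 CPM per kb, Ezh2 at 54.9 and Mtf2 at 44.0. Suz12 (26.9) and Eed (25.9) lay close to each other, followed by Rbbp4 (16.7), Jarid2 (15.6) and Aebp2 (11.7), all in CPM per kb. The 2 low members were Ezh1, at 2.50 CPM per kb, and Phf19, at 0.268 CPM per kb. Ezh2, the main methyltransferase, was therefore far above its paralog, and of the Polycomb-like genes Mtf2 and Phf19, Mtf2 was far the higher. Phf19 rested on 10 to 214 counts per library (median 48), and the other 9 genes on at least 158 counts in each library.

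**Figure D1:**
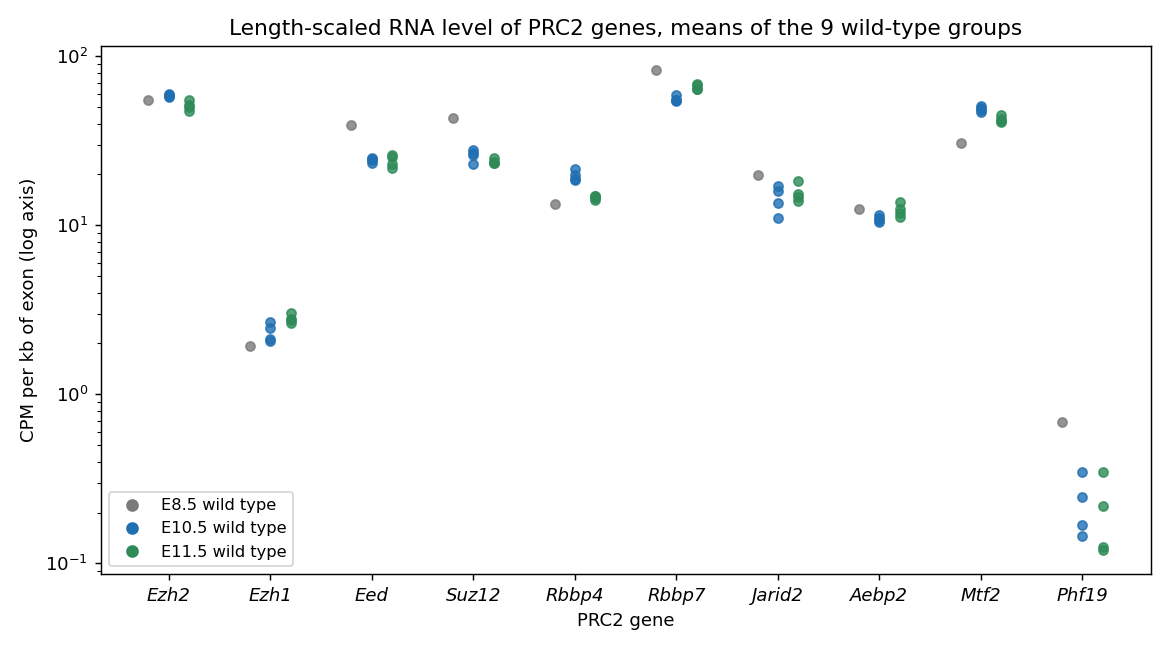
Level of each PRC2 gene in wild-type cells, as CPM per kb of exon on a log axis. Each point is the mean of 1 of the 9 wild-type groups, coloured by stage; Ezh1 and Phf19 lie well below the other 8 genes at every stage.

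**Figure D2:**
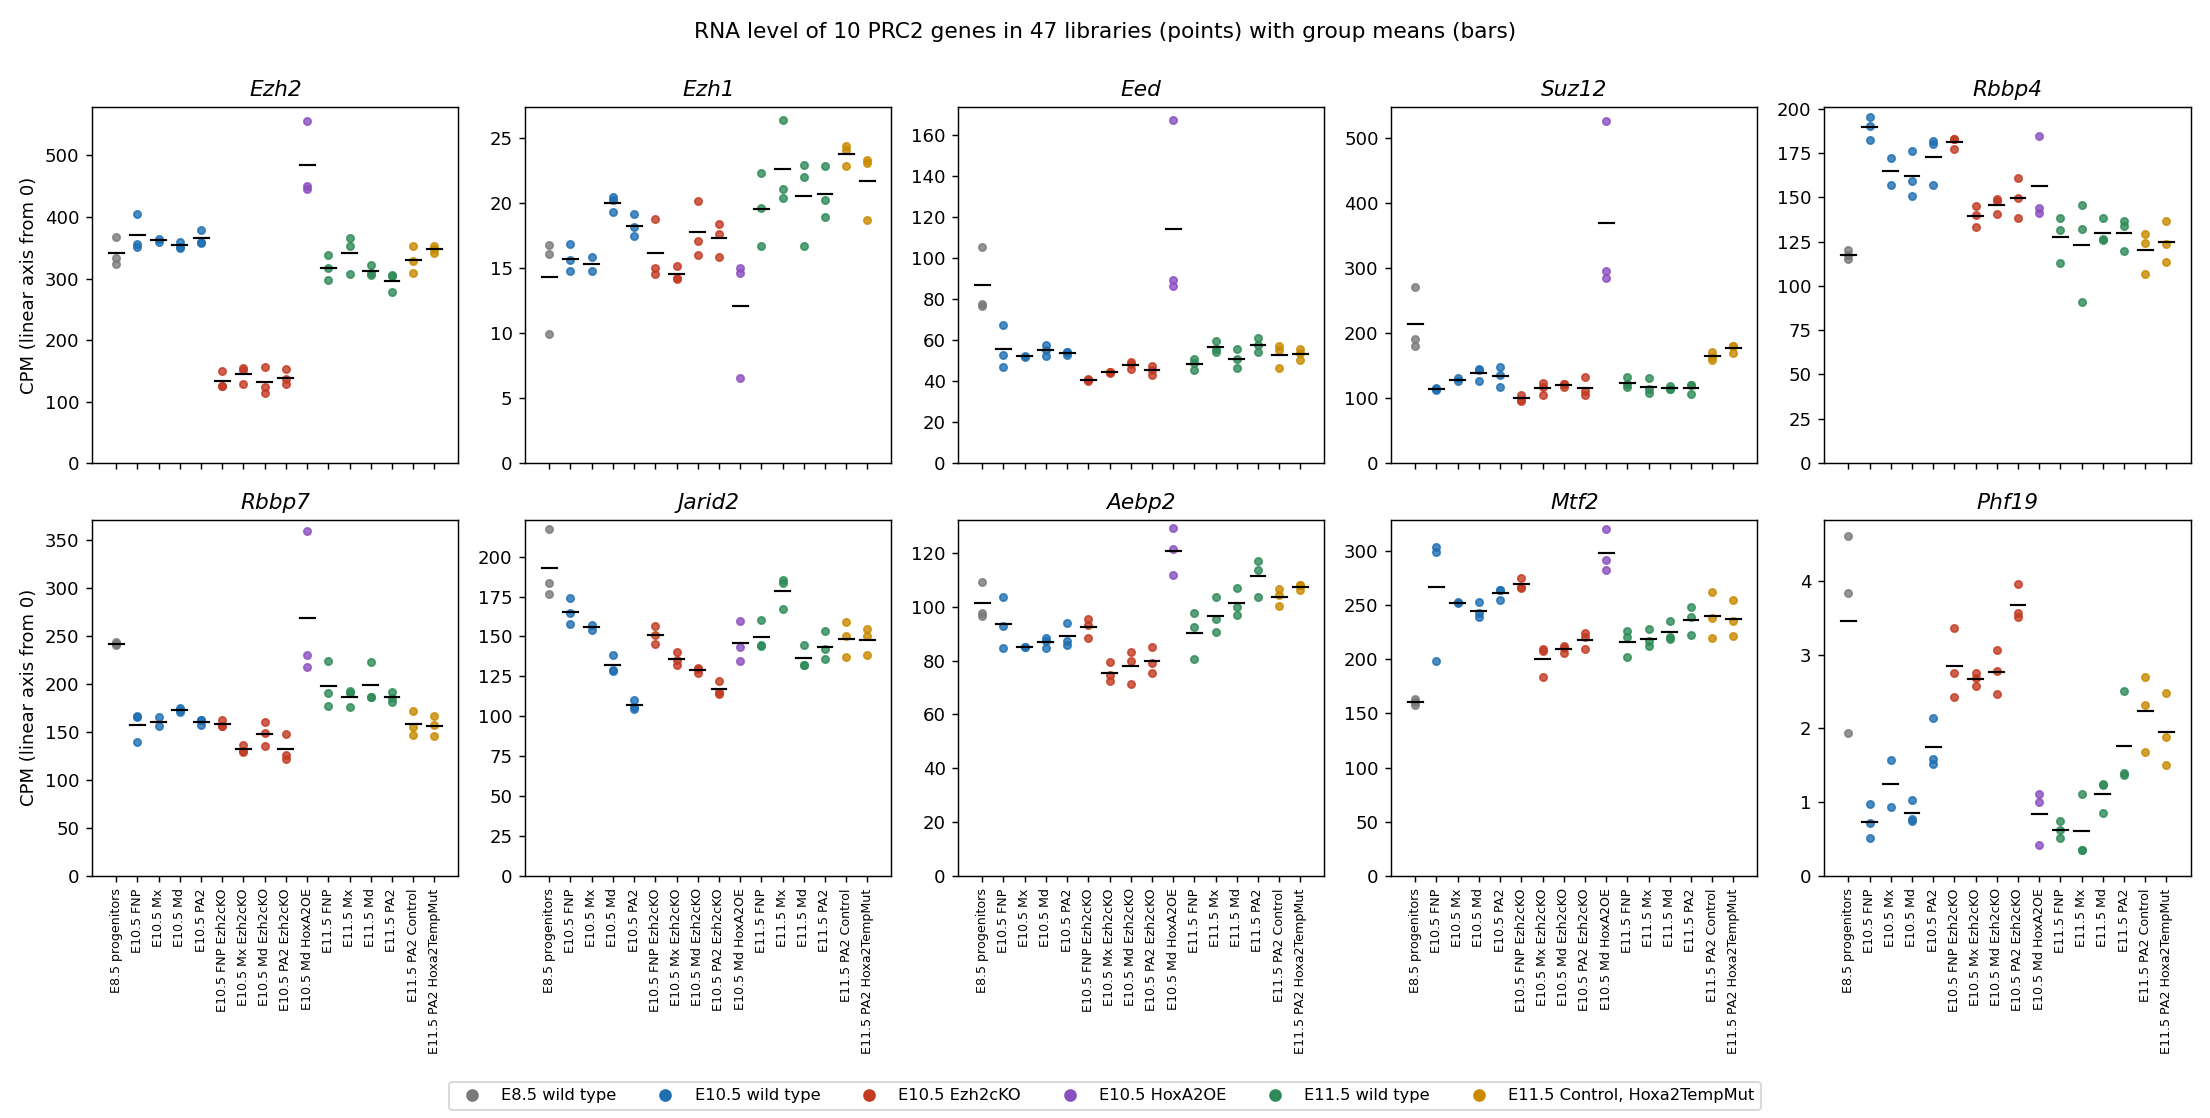
Level of each PRC2 gene in CPM (linear axis from 0) in all 47 libraries, as points, with the group means as bars. Ezh2 is lowest in the 4 Ezh2cKO groups, Suz12 and Eed are highest in HoxA2OE and next highest at E8.5, and Mtf2 and Rbbp4 are lowest at E8.5.

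The first question was how the RNAs of the complex differ where Ezh2 is knocked out. Ezh2 RNA fell in Ezh2cKO cells, which checks the labels, and that of Eed, Rbbp7 and Mtf2 fell slightly, while Phf19 RNA rose 2.73-fold. Of the 10 genes, 1 was higher and 7 were lower at an adjusted p under 0.05 (edgeR's quasi-likelihood test with Benjamini-Hochberg adjustment over all genes tested, as for every adjusted p given here). Ezh2, the gene knocked out, is 1 of the 7, and its fall is no result about the other members. It is counted in each number given for the 10. Of all genes tested, 30.8% were called in this comparison, 16.1% higher and 14.7% lower. The median log2 fold change of the 10 was -0.18, beside -0.02 over all genes. With RLE scaling, with DESeq2 or without the filter on low counts, 5 of the 10 were called, because Suz12, Rbbp4 and Aebp2 no longer passed. Without replicate 2 of FNP Ezh2cKO, 5 were called, and without replicate 1 of wild-type FNP, 7. The genes called in all numbered 5373 and 6561 there, in place of 6339.

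Ezh2 (chromosome 6, 47530274 to 47595341, minus strand, GRCm38) ran from 113 CPM through a median of 133 to 157 CPM in the 12 Ezh2cKO libraries. The 11 wild-type libraries of the same stage ran from 350.4 through 359 to 405 CPM. No Ezh2cKO library came near the wild-type range, and the 4 subpopulation means, from 131 ± 22.7 CPM in Md to 144 ± 13.5 CPM in Mx (SD, n = 3 each), lay within their spread. The log2 fold change was -1.41 ± 0.05 (SE), which is 0.377 times the wild-type level (adjusted p = 4.08e-24). By place it ran from -1.48 ± 0.10 (FNP) to -1.33 ± 0.11 (Mx), and the effect was not called different between subpopulations (adjusted p = 1). Counts cover the whole gene, so a transcript that lacks the deleted part would be counted too. Libraries were unstranded, per the labels, and a long non-coding RNA on the other strand of Ezh2, AC154015.1, was also lower (37.3 against 57.2 CPM, log2 fold change -0.63 ± 0.09, adjusted p = 2.35e-07). Reads of that gene and of Ezh2 cannot be told apart where they overlap. In bulk samples such as these, fewer cells with an RNA and less of it per cell cannot be told apart either.

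Ezh1 (chromosome 11, 101191115 to 101226463) did not pass the test. It ran from 14.2 through 16 to 20.2 CPM in Ezh2cKO and from 14.8 through 17.5 to 20.5 CPM in wild type, so the ranges overlapped almost fully. The log2 fold change was -0.07 ± 0.09, with a 95% interval from -0.26 to 0.12 (adjusted p = 0.618). As Ezh2 fell and no change of Ezh1 was called, the ratio of their RNAs per exonic base moved. In wild-type cells of E10.5 there was 1 Ezh1 RNA for 21.3 (Md) to 28.3 (Mx) of Ezh2, and in Ezh2cKO 1 for 8.83 (Md) to 11.9 (Mx). Ezh2 RNA was thus still the more abundant in each of the 12 knockout libraries.

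Phf19 (chromosome 2, 34893757 to 34914026, minus strand), one of the Polycomb-like subunits, was the 1 member that rose. Its Ezh2cKO libraries held 2.42, 3.36 and 2.75 CPM in FNP, 2.68, 2.58 and 2.75 CPM in Mx, 3.07, 2.79 and 2.46 CPM in Md, and 3.56, 3.96 and 3.52 CPM in PA2. Wild type held 0.514, 0.718 and 0.977 CPM in FNP, 0.931 and 1.57 CPM in Mx, 0.764, 1.03 and 0.743 CPM in Md, and 1.58, 2.14 and 1.52 CPM in PA2. All 12 knockout libraries lay above all 11 wild-type libraries, also across subpopulations. These are 48 to 104 counts against 13 to 51. The log2 fold change was 1.45 ± 0.17 (adjusted p = 8.24e-09), and by subpopulation it was 1.93 ± 0.34 (FNP), 1.1 ± 0.36 (Mx), 1.7 ± 0.35 (Md) and 1.07 ± 0.31 (PA2). The differences among these 4 were not called (adjusted p = 1). Even after the rise, there was 1 Phf19 RNA per exonic base for 56.8 (PA2) to 91.5 (FNP) of Mtf2, where wild type had 1 for 145 (PA2) to 353 (FNP).

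Eed (chromosome 7, 89954656 to 89980983, minus strand) fell by 0.28 ± 0.07 on the log2 scale (adjusted p = 0.00273). In FNP its 3 knockout libraries held 41.1, 40.4 and 39.8 CPM against 67.1, 52.7 and 46.7 CPM in wild type. In Mx they held 44.3, 43.9 and 44.7 CPM against 51.9 and 52.4 CPM, in Md 45.8, 49.5 and 48.2 CPM against 55.4, 52.0 and 57.7 CPM, and in PA2 47.3, 45.5 and 43.1 CPM against 54.2, 52.8 and 54.0 CPM. The knockout libraries lay below the wild-type libraries in each of the 4 subpopulations, without overlap. Leaving out replicate 1 of wild-type FNP, the highest of them, gave -0.24 ± 0.07 (adjusted p = 0.00834).

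Mtf2 (chromosome 5, 108065674 to 108109004) fell by 0.20 ± 0.05 on the log2 scale (adjusted p = 8.65e-04). Its knockout libraries lay between 183 and 225 CPM in Mx, Md and PA2, below all wild-type libraries there (239.5 to 265 CPM). In FNP they held 266, 275 and 267 CPM, and wild type held 199, 304 and 299 CPM, of which the first is the library that stood apart. Without that library the fall was 0.25 ± 0.03, with an adjusted p of 4.92e-07. Rbbp7 (X chromosome, 162760402 to 162779092) fell by 0.20 ± 0.06 on the log2 scale (adjusted p = 0.0079). Its libraries did not overlap in Mx, Md and PA2 but did in FNP, where the means were 158 ± 3.74 CPM in knockout and 157 ± 15.4 CPM in wild type. For neither gene was the effect called different between subpopulations (adjusted p = 0.719 for Mtf2 and 1 for Rbbp7).

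Suz12, Rbbp4 and Aebp2 were near the threshold. Suz12 had a log2 fold change of -0.19 ± 0.07 (adjusted p = 0.0411), with 96.0 to 132 CPM in knockout and 112 to 148 CPM in wild type. Leaving out any of 17 of the 23 libraries ended this call, the values over all 23 lying between -0.21 and -0.17, and so did counting without mitochondrial genes (adjusted p = 0.057). Rbbp4 had -0.17 ± 0.06 (adjusted p = 0.0227) and lost its call without replicate 2 of wild-type Mx (adjusted p = 0.0717), replicate 3 of wild-type Md (0.05) or replicate 2 of FNP Ezh2cKO (0.0914). Aebp2 had -0.13 ± 0.04 (adjusted p = 0.0175) and lost its call without replicate 2 of FNP Ezh2cKO (adjusted p = 0.0856). All 3 ranges overlapped between genotypes. Jarid2, which helps to recruit PRC2 to its targets, did not pass (-0.06 ± 0.04, adjusted p = 0.281). Its values by subpopulation ran from -0.20 ± 0.08 in Mx to 0.13 ± 0.08 in PA2, and the difference between subpopulations had an unadjusted p of 0.0289 and an adjusted p of 0.487. No member was called in that test of differences, in which 1.63% of all genes were called. DESeq2 called none, and Jarid2 was the 1 member with an unadjusted p under 0.05.

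**Figure D3:**
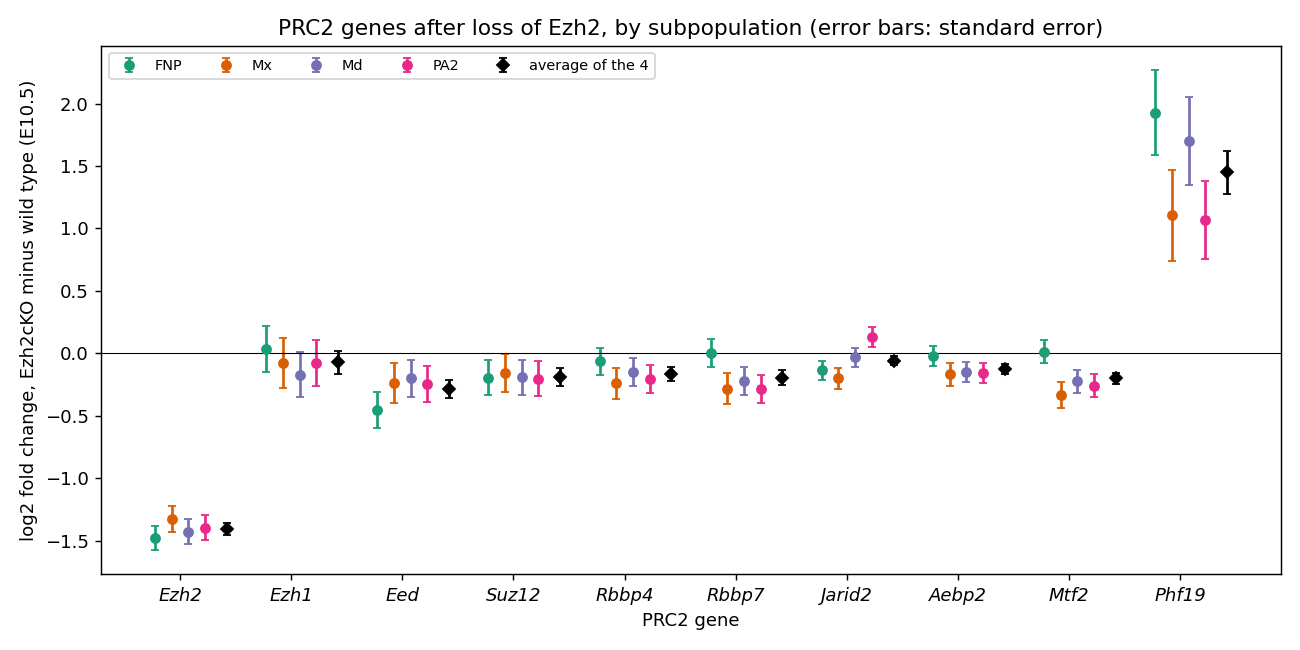
Log2 fold change of each PRC2 gene, Ezh2cKO minus wild type at E10.5, in each of the 4 subpopulations (circles) and averaged over them (diamonds), with standard errors. Ezh2 is near -1.41 and Phf19 near 1.45, and the other 8 averages lie between -0.28 and -0.06.

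Partner complexes were counted in the same comparison, where 16.1% of all genes were called higher and 14.7% lower. Of 14 genes of canonical PRC1, a complex that binds the mark that PRC2 makes, 5 rose and none fell. Bmi1, a core PRC1 subunit, stood at 153 ± 15 CPM in knockout (n = 12) and 55.4 ± 5.04 CPM in wild type (n = 11), and rose by 1.45 ± 0.06 on the log2 scale (adjusted p = 1.76e-22). The chromodomain gene Cbx8 (log2 fold change 0.84 ± 0.11) rose too. Of 12 variant PRC1 genes, 3 rose and 3 fell, with Bcorl1 at 0.37 ± 0.06, Bcor at 0.36 ± 0.04 and Pcgf6 at -0.25 ± 0.04. Of 3 genes of H3K27 demethylases none was called, and of 4 tested further PRC2 accessory genes 1 rose (E130012A19Rik, 0.29 ± 0.11, adjusted p = 0.0317, a call lost without, among other libraries, replicate 2 of wild-type Mx) and 1 fell (Lcor, -0.20 ± 0.06). Rbbp4 and Rbbp7 also serve other chromatin complexes, and of 18 genes of those (NuRD, CAF-1 and Sin3) 1 rose and 9 fell, among them Hdac1 (-0.30 ± 0.08).

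Measures of the cells moved with genotype as well. Of 19 proliferation genes, 8 fell and none rose, where 14.7% of all genes were called lower and 16.1% higher. The list was led by the replication gene Mcm6 (144 ± 14.1 against 194 ± 12.2 CPM, log2 fold change -0.43 ± 0.05). The list's median was -0.14, beside -0.18 for the PRC2 genes, and 3 of the 19 were called without the filter on low counts or without replicate 2 of FNP Ezh2cKO. Mitochondrial counts were 24.9% to 31.0% in the knockout libraries of Mx, Md and PA2 and 19.9% to 24.0% in their wild-type libraries, but 29.3% to 32.4% and 28.2% to 33.6% in FNP, where they overlapped. Of markers of other cells, 4 of 6 for epithelium, 4 of 6 for neural tube and 5 of 7 for neurons were called higher, and 3 of 6 erythroid genes lower. The neural tube markers Pax5, En2 and Shh had no counts in the 4 wild-type groups of E10.5. More of these other cells and a rise of the same genes within crest cells cannot be told apart here. Summed epithelial markers were 8.57 to 12.9 CPM in knockout and 2.55 to 12.1 CPM in wild type, summed neural tube markers 27.4 to 41.1 and 20.6 to 31.5 CPM, and summed neural crest and mesenchyme markers 1192 to 1756 and 1300 to 1844 CPM. The part of these in the PRC2 values was not tested. Leaving mitochondrial genes out changed no member's call other than that of Suz12, but this leaves any difference between the cells in place.

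The next question was how the complex differed from progenitors to patterned subpopulations. Between E8.5 and E10.5, RNAs of Eed, Suz12, Rbbp7, Jarid2, Aebp2 and Phf19 fell, those of Rbbp4 and Mtf2 rose, and Ezh2 and Ezh1 did not pass the test. That is 2 higher and 6 lower of 10, where 68.4% of all genes were called, 32.1% higher and 36.3% lower. The median of the 10 was -0.34, beside -0.03 over all genes. The E8.5 libraries held more RNA of other cells: neural tube markers summed to 337 to 410 CPM (20.6 to 31.5 in wild type at E10.5), epithelial markers to 112 to 133 (2.55 to 12.1), endothelial markers to 135 to 150 (1.86 to 7.42) and erythroid markers to 612 to 986 (24.9 to 423). Mitochondrial counts were at most 18.7% at E8.5 and 19.9% to 33.6% in wild type at E10.5, without overlap, and 8 members were called with mitochondrial genes left out. The part of the other cells in the stage differences was not tested.

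Neither catalytic gene passed the test. Ezh2 held 368, 324 and 334 CPM at E8.5, the first inside and the others under the 350.4 to 405 CPM of E10.5 (log2 fold change 0.09 ± 0.08, adjusted p = 0.33, and 0.15 ± 0.09 without replicate 1 of E8.5, adjusted p = 0.165). Ezh1 held 9.96, 16.1 and 16.8 CPM at E8.5, of which the first is the library that stood apart, and 14.8 to 20.5 CPM at E10.5 (0.27 ± 0.15, adjusted p = 0.0986). Without that library it was 0.07 ± 0.15 (adjusted p = 0.697). It was called without replicate 2 of E8.5 (0.40 ± 0.17, adjusted p = 0.0357), replicate 3 of E8.5 (0.45 ± 0.17, 0.0174) or replicate 2 of wild-type Mx (0.33 ± 0.15, 0.0457).

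The scaffold genes were higher in progenitors. Suz12 (chromosome 11, 79993106 to 80034123) held 271, 191 and 180.3 CPM at E8.5 and 112 to 148 CPM at E10.5, with no overlap (log2 fold change -0.74 ± 0.11, adjusted p = 6.95e-08). Eed held 106, 76.9 and 77.8 CPM against 46.7 to 67.1 CPM, again with no overlap (-0.68 ± 0.11, adjusted p = 7.69e-07). In both genes replicate 1 of E8.5 was the highest. Without it the values were -0.53 ± 0.12 for Suz12 (adjusted p = 1.52e-04) and -0.51 ± 0.13 for Eed (adjusted p = 5.62e-04).

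The histone-binding paralogs moved in opposite directions. Rbbp7 held 241, 241 and 243 CPM at E8.5 and 139.7 to 174 CPM at E10.5 (-0.57 ± 0.09, adjusted p = 2.44e-07). Rbbp4 (chromosome 4, 129307100 to 129335370, minus strand) held 118, 120.2 and 115 CPM and then 151 to 196 CPM (0.55 ± 0.09, adjusted p = 1.59e-06). Neither gene's ranges overlapped between the stages. The log2 ratio of Rbbp7 to Rbbp4 per exonic base was 2.63 ± 0.04 at E8.5 and had means of 1.32 to 1.68 in the 4 wild-type groups of E10.5.

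The accessory genes also split. Mtf2 held 160.4, 163 and 158 CPM at E8.5 and 199 to 304 CPM at E10.5 (0.67 ± 0.08, adjusted p = 3.92e-10), without overlap. Its Polycomb-like relative Phf19 held 1.94, 4.62 and 3.83 CPM and then 0.514 to 2.14 CPM (-1.68 ± 0.23, adjusted p = 2.36e-08). Only replicate 1 of E8.5 reached into the E10.5 range of Phf19, and without it the fall was 1.95 ± 0.23. At E8.5 there was 1 Phf19 RNA for 47.3 of Mtf2 per exonic base, fewer Mtf2 per Phf19 than in any other group mean. Jarid2 (chromosome 13, 44729474 to 44921643) held 217, 184 and 177 CPM and then 105 to 174 CPM (-0.48 ± 0.06, adjusted p = 2.27e-09), and -0.38 ± 0.06 without replicate 1 of E8.5. Aebp2 (chromosome 6, 140622449 to 140678472) held 109, 97.9 and 96.7 CPM and then 84.6 to 104 CPM (-0.19 ± 0.06, adjusted p = 0.00687). Its ranges overlapped, and its call was lost without replicate 1 of E8.5 (adjusted p = 0.125), replicate 1 of wild-type Mx (0.0587) or replicate 2 of wild-type Mx (0.0571).

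From E10.5 to E11.5 the members changed less. Rbbp4, Ezh2 and Mtf2 fell, and Ezh1, Rbbp7, Aebp2 and Jarid2 rose. These are 4 higher and 3 lower of 10, where 63.8% of all genes were called, 33.7% higher and 30.1% lower. The median size of change was 0.20 for the 10 and 0.37 for all genes, on the log2 scale without sign. Both stage comparisons share the wild-type libraries of E10.5. Mitochondrial counts were 19.9% to 33.6% at E10.5 and 11.7% to 19.5% at E11.5, without overlap, and 7 members were called with mitochondrial genes left out. Of markers of other cells, 5 of 6 erythroid genes were called lower, 5 of 6 endothelial genes and 3 of 6 epithelial genes higher, and of 7 neuron genes 2 higher and 5 lower. Their part in these differences was not tested.

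Rbbp4 had the largest change, from a median of 176 CPM (151 to 196) to a median of 132 CPM (90.8 to 146), with no overlap (log2 fold change -0.43 ± 0.06, adjusted p = 1.78e-08). Rbbp7 went from 165 CPM (139.7 to 174) to 188 CPM (176 to 224), also with no overlap (0.24 ± 0.06, adjusted p = 4.44e-04, and 0.19 ± 0.06 without replicate 3 of FNP at E11.5). The log2 ratio of Rbbp7 to Rbbp4 had means of 2.11 to 2.22 in the 4 groups of E11.5. Ezh2 went from 359 CPM (350.4 to 405) to 308 CPM (278 to 366) (-0.20 ± 0.05, adjusted p = 6.51e-04), and 2 libraries of Mx lay inside the earlier range. Ezh1 went from 17.5 CPM (14.8 to 20.5) to 20.8 CPM (16.7 to 26.4) (0.27 ± 0.09, adjusted p = 0.0101). The RNAs of the 2 enzymes thus moved oppositely, and there was 1 Ezh1 RNA for 17.2 (PA2) to 19.6 (FNP) of Ezh2 at E11.5.

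Mtf2 fell by 0.19 ± 0.05 on the log2 scale (adjusted p = 4.64e-04), and Aebp2 rose by 0.17 ± 0.04 (adjusted p = 4.87e-04). Jarid2 rose by 0.13 ± 0.04 (adjusted p = 0.00351), a call that was lost without replicate 1 of wild-type Mx at E10.5 (0.10 ± 0.04, adjusted p = 0.0506). Eed (-0.02 ± 0.07, adjusted p = 0.807), Suz12 (-0.12 ± 0.07, adjusted p = 0.139) and Phf19 (-0.22 ± 0.19, adjusted p = 0.305) did not pass. Phf19 was called without replicate 1 of Mx at E11.5 (-0.42 ± 0.18, adjusted p = 0.0423). Of the proliferation genes, 12 of 19 fell over the same interval and 1 rose, led by Ccne1 (-0.81 ± 0.07), a cyclin of the entry into DNA replication. Of all genes, 30.1% were called lower there and 33.7% higher.

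**Figure D4:**
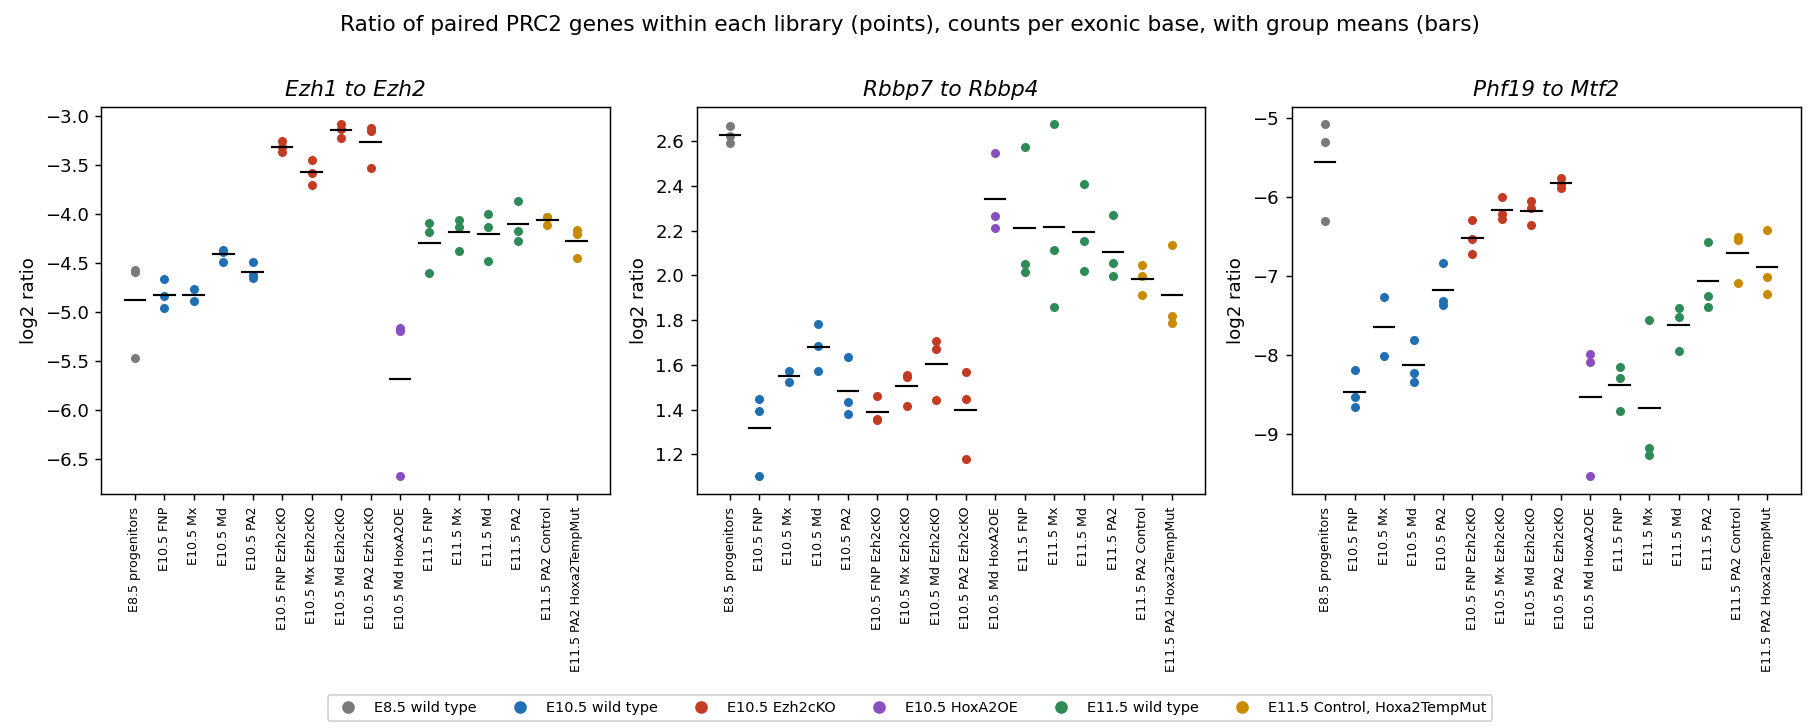
Log2 ratio of paired PRC2 genes within each library (points), in counts per exonic base, with group means as bars. Ezh1 to Ezh2 is highest in the Ezh2cKO groups and lowest in HoxA2OE, Rbbp7 to Rbbp4 is lowest in the E10.5 groups other than HoxA2OE, and Phf19 to Mtf2 is highest at E8.5 and higher in Ezh2cKO than in its wild-type counterparts.

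Most members were not called different across the face and arches, and Jarid2 had the smallest p-value at both stages. At E10.5, 2 of the 10 differed between the 4 wild-type subpopulations, Jarid2 and Phf19, where 27% of all genes were called. At E11.5 it was 3 of 10, Jarid2, Aebp2 and Phf19, where 29.4% were called. The remaining genes, among them the whole core of Ezh2, Ezh1, Eed, Suz12, Rbbp4 and Rbbp7, did not pass at either stage, with adjusted p-values of at least 0.327 for those 6.

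At E10.5 Jarid2 held 174, 158 and 165 CPM in FNP, 154 and 157 CPM in Mx, 129, 128 and 138 CPM in Md, and 110.4, 105 and 106 CPM in PA2. No ranges of the 4 groups overlapped, and FNP and Mx lay closest. The test over the 4 gave an adjusted p of 3.96e-08. At E11.5 the order was another: 167, 184 and 185 CPM in Mx, 144, 160.1 and 145 CPM in FNP, 142, 153 and 136 CPM in PA2, and 145, 132 and 132 CPM in Md (adjusted p = 2.90e-04). There only Mx stood clear of the rest, and the other 3 groups overlapped. The change from E10.5 to E11.5 was 0.43 ± 0.08 (PA2), 0.20 ± 0.08 (Mx), 0.05 ± 0.08 (Md) and -0.15 ± 0.08 (FNP), in log2 units. These 4 changes differed (adjusted p = 7.57e-04), and Jarid2 was the 1 member of 10 called in that test, where 15.6% of all genes were called. Without replicate 1 of wild-type FNP at E10.5, Aebp2 (adjusted p = 0.0281) and Mtf2 (0.0307) were called as well, Aebp2 also without replicate 2 of FNP at E11.5 (0.043), and Phf19 without replicate 1 of Mx at E11.5 (0.0254).

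Phf19 was highest in PA2 at both stages. At E10.5 it held 1.58, 2.14 and 1.52 CPM in PA2, above all libraries of FNP and Md (0.514 to 1.03 CPM), while 1 of the 2 libraries of Mx, at 1.57 CPM, lay within the range of PA2 (adjusted p = 0.0278). The call was lost without replicate 1 of FNP (adjusted p = 0.0794), replicate 2 of FNP (0.0624) or replicate 2 of PA2 (0.148). At E11.5 it held 1.40, 1.36 and 2.51 CPM in PA2 and 0.35 to 1.24 CPM in the 9 other libraries (adjusted p = 8.24e-04), with no overlap. Aebp2 at E11.5 was 111 ± 6.95 CPM in PA2, 101 ± 5.22 in Md, 96.6 ± 6.65 in Mx and 90.4 ± 8.85 in FNP (adjusted p = 0.018). Neighbours in that order lay within their spread, and the call was lost without replicate 3 of FNP (adjusted p = 0.074), replicate 2 of PA2 (0.0946) or replicate 3 of PA2 (0.0693). Mtf2 at E10.5 became a call only without replicate 1 of FNP (adjusted p = 0.0104), which held 199 CPM against 304 and 299 CPM in its replicates. Other cells differed between the places too: at E10.5 summed neuron markers were 152 to 177 CPM in Mx and at most 14.8 CPM in the other 3, and erythroid markers 24.9 to 50.4 CPM in FNP and 175 to 423 CPM in the others. Their part was not tested.

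After TMM scaling, Md cells that overexpress Hoxa2 had the highest mean of all 16 groups for Ezh2, Eed, Suz12, Rbbp7, Aebp2 and Mtf2, and the lowest for Ezh1. Against wild-type Md, those 6 rose and Ezh1 fell, while Rbbp4, Jarid2 and Phf19 did not pass. Without replicate 1, 6 of the 10 were called, and 9445 genes in all, in place of 11277. With all libraries that is 6 higher and 1 lower of 10, where 54.8% of all genes were called, 27.1% higher and 27.8% lower. The median of the 10 was 0.37, beside -0.07 over all genes. TMM factors were 0.514 to 0.775 in HoxA2OE and 1.00 to 1.08 in wild-type Md, and a lower factor gives a higher CPM. Scaled by depth alone, HoxA2OE levels would be lower beside wild-type Md, so the ranks and the sizes of the rises rest on this scaling. Suz12 and Eed would still be higher in HoxA2OE by depth alone, Suz12 with 10430 to 12726 counts against 2706 to 3402. For Ezh2, Rbbp7, Aebp2 and Mtf2 the mean would not be higher, so their rises depend on the scaling. The HoxA2OE libraries were deeper, 45.6 to 49.8 M counts against 18.8 to 22.6 M in wild-type Md, and thinning all libraries to the shallowest left 7 calls of 10. They held 28.5% to 45.9% mitochondrial counts against 19.9% to 24.0%, and 10.4 to 13.3 CPM of summed erythroid markers against 219 to 284 CPM. Leaving mitochondrial genes out changed no member's call in HoxA2OE, but this leaves any difference between the cells in place. Apart from the thinning for depth, the part of these differences was not tested.

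Suz12 had the largest rise. Its 3 HoxA2OE libraries held 526, 295 and 285 CPM, and wild-type Md held 144, 126 and 144 CPM. The lowest overexpressing library was far above the highest wild-type library. The log2 fold change was 1.42 ± 0.14 (adjusted p = 1.04e-10), and 1.06 ± 0.11 without replicate 1 (adjusted p = 9.86e-10). Eed held 167, 86.3 and 89.2 CPM against 55.4, 52.0 and 57.7 CPM (1.05 ± 0.14, adjusted p = 1.02e-07). Without replicate 1 it was 0.66 ± 0.11, with an adjusted p of 5.76e-06. Rbbp7 held 359, 217 and 229.7 CPM against 172, 171 and 174 CPM (0.64 ± 0.11, adjusted p = 8.35e-06), and 0.36 ± 0.09 without replicate 1 (adjusted p = 0.00152). In all 3 genes replicate 1 was the highest library, and the remaining libraries also lay above wild type.

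Ezh2 held 556, 450.1 and 445 CPM against 350.4, 351 and 359.9 CPM (0.45 ± 0.10, adjusted p = 1.41e-04), and 0.32 ± 0.10 without replicate 1 (adjusted p = 0.00894). Ezh1 held 6.53, 15.1 and 14.7 CPM against 20.5, 20.2 and 19.3 CPM (-0.71 ± 0.18, adjusted p = 0.0011). Without replicate 1 the fall was 0.45 ± 0.16 (adjusted p = 0.0164), and with the spread taken from these 2 groups alone Ezh1 was not called (-0.75 ± 0.29, adjusted p = 0.0739). The ratio was 1 Ezh1 RNA for 51.2 of Ezh2, against 1 for 21.3 in wild-type Md. Aebp2 rose by 0.48 ± 0.08 (adjusted p = 3.77e-06) and by 0.41 ± 0.09 without replicate 1. Mtf2 rose by 0.28 ± 0.09 (adjusted p = 0.00813), a call that was lost without replicate 1 (0.21 ± 0.10, adjusted p = 0.0784) and with the spread from these 2 groups alone (adjusted p = 0.0818). Jarid2 (0.15 ± 0.08, adjusted p = 0.101) was called without replicate 3 (0.29 ± 0.08, adjusted p = 0.00356). Rbbp4 (-0.05 ± 0.11, adjusted p = 0.718) and Phf19 (0.03 ± 0.38, adjusted p = 0.967) had values with intervals from -0.28 to 0.17 and from -0.75 to 0.80.

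The pattern of the libraries that stood apart was shared in part. Replicate 1 of E8.5 and replicate 1 of HoxA2OE were each the highest of their group in Ezh2, Eed, Suz12 and Aebp2 and the lowest in Ezh1 and Phf19. Of the proliferation genes, 10 of 19 were higher and 3 lower in HoxA2OE, with Pcna at 414 ± 153 against 154 ± 8.94 CPM (1.43 ± 0.14) and E2f2 at -1.12 ± 0.16. At E10.5 against E8.5, 4 were higher and 13 lower, with Pcna at -0.96 ± 0.10. Of all genes, 27.1% were called higher and 27.8% lower in HoxA2OE, and 32.1% and 36.3% at E10.5 against E8.5. The part of proliferation in the PRC2 values was not tested.

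In PA2 at E11.5, the temporal loss of Hoxa2 moved no PRC2 gene past the test. None of the 10 was called, 0 by edgeR and 0 by DESeq2, and 0 had an unadjusted p under 0.05. Of all genes tested, 0.623% were called, 0.258% higher and 0.365% lower. The log2 fold changes ran from -0.20 ± 0.30 for Phf19 to 0.10 ± 0.14 for Suz12, and 95% intervals were as wide as -0.80 to 0.41 for Phf19 and as narrow as -0.16 to 0.14 for Jarid2. Ezh2 held 353, 347 and 341 CPM in Hoxa2TempMut and 353, 329 and 309 CPM in Control, and Ezh1 held 23.1, 23.3 and 18.7 CPM and 24.4, 24.1 and 22.8 CPM.

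Control cells themselves differed from wild-type PA2 in 1 member, Suz12, where 22.1% of all genes were called, 10.1% higher and 12% lower. Suz12 held 172, 158 and 163 CPM in Control and 106, 119 and 119.9 CPM in wild type, with no overlap (log2 fold change 0.52 ± 0.14, adjusted p = 0.00553). Without replicate 1 of wild-type PA2 it was 0.45 ± 0.17 and was not called (adjusted p = 0.0578). Hoxa2TempMut held 181, 179 and 169 CPM of Suz12, so all 6 libraries of that pair of groups lay above the 23 wild-type libraries of E10.5 and E11.5, the highest of which held 148 CPM. Eed did not share this, at 57.1, 55.2 and 46.4 CPM in Control and 57.8, 60.9 and 54.2 CPM in wild type (-0.12 ± 0.14, adjusted p = 0.591). Rbbp7 held 172, 155 and 147 CPM in Control and 191, 185 and 181 CPM in wild type, without overlap, but was not called (-0.23 ± 0.11, adjusted p = 0.136). With the spread taken from these 2 groups alone it was called (-0.24 ± 0.07, adjusted p = 0.0127). Mitochondrial counts were at least 19.6% in Control and 15.4% to 18.0% in wild-type PA2, and 1 member was called with mitochondrial genes left out. Of markers of other cells, 4 of 6 muscle genes (summed level 3.57 to 6.98 against 1.42 to 2.42 CPM), 3 of 6 epithelial and 3 of 7 neuron genes were called higher, and 3 of 6 endothelial genes lower. Their part in the values of Suz12 was not tested. Reads of Suz12 and of AL591113.1, a non-coding gene on its other strand, cannot be told apart where they overlap.

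**Figure D5:**
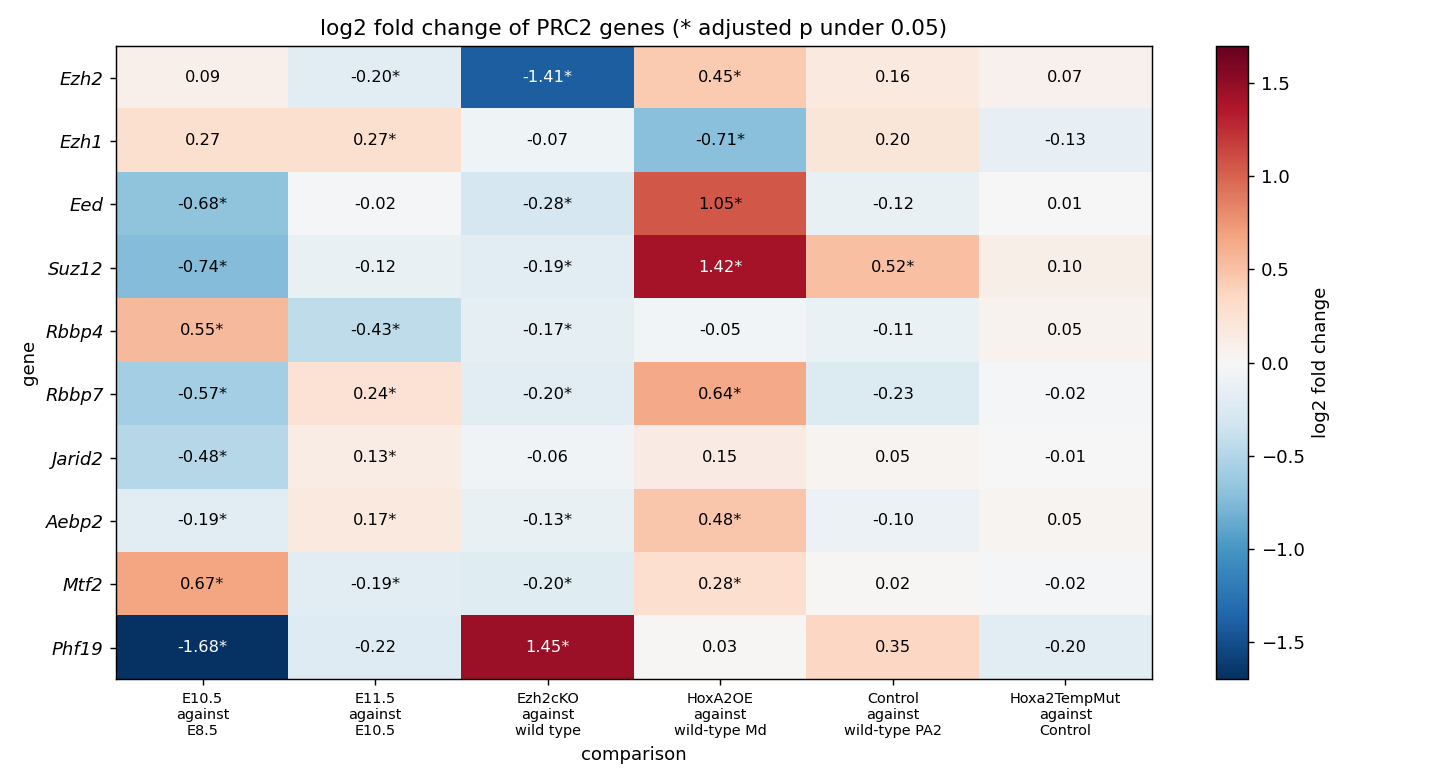
Log2 fold change of each PRC2 gene in the 6 comparisons with a direction, as colour and number, with an asterisk at an adjusted p under 0.05. Suz12 and Eed were both called lower in the E10.5 and Ezh2cKO columns and both higher in the HoxA2OE column. Ezh1 and Ezh2 were called in opposite directions in the E11.5 and HoxA2OE columns.

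Across the 9 wild-type groups, the RNAs whose log2 levels followed Ezh2 most closely were Poc1b, Dlgap5, Baz1a, Arih2 and Iqgap3, with Pearson correlations of 0.98, 0.96, 0.96, 0.94 and 0.94 among 8541 genes. Those most like Ezh1 were Slit3, Lamb2, Idua, Mmab and Mmp11, with correlations from 0.96 to 0.98. These are descriptions over 9 group means that share their stages. No other PRC2 gene was among the closest to Ezh2. Rbbp4 came nearest (0.72, rank 798 of 8541), and Ezh1 (-0.52), Rbbp7 (-0.53) and Aebp2 (-0.73) ran against it. Ezh2 itself varied little over these groups, by 1.25-fold between its lowest and highest mean, and Phf19 most, by 5.75-fold.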

How the data were processed

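Per the labels, crest cells were dissected, dissociated, sorted and made into unstranded libraries read as single ends of 50 bases. The deposited values are whole-number counts per gene, made by the authors before deposit. The submitters' processing notes name bcl2fastq 2.17 and the build GRCm38, and the aligner, counter and annotation were not given in the sources used here. All 47 libraries in 16 groups were fitted together with edgeR 4.0.16 (R 4.3.3), with TMM scaling, filterByExpr (minimum count 10, minimum total 15), a quasi-likelihood fit with 31 residual degrees of freedom, and Benjamini-Hochberg adjustment over 20560 genes. Contrasts weight subpopulations equally, and an SE is the absolute log2 fold change divided by the square root of F. CPM per kb uses the deposited exonic length. Alternatives used DESeq2 1.42.0, RLE size factors, thinning, no filter on low counts, no mitochondrial genes, the replicate number as a block, only the groups compared, and leaving out each library; the test was also tried on simulated data. Of the deposited columns, 22 carry a name a second time with identical values, and the repeats were not used. Likeness to Ezh2 or Ezh1 is the correlation of log2(CPM + 1) over the wild-type group means, among genes with a mean of at least 10 CPM and a gene symbol that is not a clone or model name. All 10 members are named, with up to 3 called genes of each other list, those with the largest change among genes with a mean of at least 5 CPM in either group. A result that this rule would name is not reported here. The members and lists were chosen with earlier results of these data known.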

Additional observations from a re-analysis of the deposited data

Results flagged for a closer look

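Jarid2 was picked out because its change from E10.5 to E11.5 differed between the 4 subpopulations by a test of the difference itself (adjusted p = 0.000757, edgeR's quasi-likelihood test). The change was 0.43 ± 0.08 on the log2 scale in PA2 and -0.15 ± 0.08 in FNP. Without replicate 1 of wild-type FNP at E10.5 the adjusted p was 0.00251.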

How the results depend on the processing

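No called value of a member changed sign under the settings run. All of these correct for library composition, and scaling by depth alone was not run, so sign changes under it could not show. Some values that were not called did change sign, for example Rbbp4 in HoxA2OE, at -0.05 with all libraries and between -0.20 and 0.11 with 1 left out. Phf19 there was at 0.03 and between -0.12 and 0.28. In Ezh2cKO 8 members were called, Ezh2 itself included, and 5 with RLE size factors, 5 with DESeq2 and 5 without the filter on low counts. In those settings Suz12, Rbbp4 and Aebp2 no longer passed. The genes whose Ezh2cKO effect differed between subpopulations numbered 335, and 546 with only the groups compared and 523 with DESeq2. With only the groups compared, genes called fell from 11277 to 6400 in HoxA2OE and rose from 128 to 247 in Hoxa2TempMut against Control, and members called in Control against wild-type PA2 went from 1 to 2. The cause of these shifts was not tested. Leaving out 1 library at a time gave 5 to 8 members called in Ezh2cKO, where 5373 to 6561 genes were called in all. It gave 1 to 3 members (2504 to 3241 genes) where the stage effect differed between subpopulations. Where subpopulations differed at E10.5 it gave 1 to 2 (4667 to 5312 genes), and in Control against wild-type PA2 0 to 1 (3320 to 3746 genes). Hoxa2TempMut against Control had 75 to 130 genes called, with 75 reached without replicate 2 of Control. Among the members' own values, 7 became calls and 16 lost theirs in other settings, while 695 kept their side, and 10 became calls and 33 lost theirs with a library left out, while 1427 kept theirs. Depth limits Phf19 most, with 10 to 214 counts in a library.

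The deviations of same-numbered libraries had correlations of -0.086 to 0.109 over 20 pairs. These pairs set Ezh2cKO, HoxA2OE and Control against wild type of the same place and stage, and Hoxa2TempMut against Control. Whether same-numbered libraries of different subpopulations or stages belong together was not tested. With the replicate number as a block, the counts of members called were the same in all 10 comparisons, for example 8 in Ezh2cKO and 7 in HoxA2OE, no member's call changed, and 6365 genes were called in Ezh2cKO in place of 6339.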
